A study of Mus musculus with 16 samples.

Results

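The 9 genes examined here govern or mark the passage of a B cell into the germinal centre or to the plasma cell: Prdm1, Xbp1, Irf4, Bcl6, Bach2, Sdc1, Jchain, Tnfrsf17 and Zbtb20. They were taken by name from the 21631 protein-coding genes on mouse chromosomes 1 to 19 and X, and each was measured over its gene body plus 20 kb on each side (its window). The mark mapped was H3K27me3, the trimethylated lysine of histone H3 that the Polycomb enzyme EZH2 deposits, by chromatin immunoprecipitation and sequencing (ChIP-seq). B cells were taken from spleens of C57BL/6 mice aged 6 to 8 weeks, using MACS with CD43 microbeads. Donor mice were wild type (WT) or mutant for Ifih1, Rigi and cGAS together (mutant), genes of cytosolic nucleic acid sensors. All cells spent 48 hours with BAFF and IL-4 at 2 ng/mL each, in the solvent DMSO or in 1 µM GSK343, an EZH2 inhibitor. For each genotype and treatment, 2 ChIP and 2 input samples were taken and 1 list of broad peaks was used. A folder in the peak names refers to pooled duplicates, but the names of the mutant lists end in 1, so for these pooling and replicate 1 alone cannot be told apart.

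Germinal centre B cells multiply and mutate their antibody genes under the repressor Bcl6, with Bach2 holding back plasma cell fate. On the way to the plasma cell, Irf4 and Prdm1 (the gene of Blimp-1) switch the programme, Xbp1 builds up the secretory apparatus, and Sdc1, Jchain and Tnfrsf17 come to be made. H3K27me3 is found over silent developmental genes, and EZH2 is known for holding plasma cell genes in check in germinal centre B cells.

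No list has a replicate, so no difference between lists could be tested, and read depth is unknown from the lists. In WT cells 39495 peaks were listed under DMSO and 11903 under GSK343, and in mutant cells 49803 and 10847. A gene with no peak is one where none was called, which does not show that the mark is absent. In a mixed population, fewer cells carrying the mark and less mark in each cell cannot be told apart. The gene bodies of Cd79a, Cd79b, Ms4a1, Pax5 and Cd22, which B cells express, carried no peak in the 4 lists. Off the body, WT DMSO peaks covered 1.18% of the Cd79a window and 2.31% of the Pax5 window. Of 3 T cell genes, Cd4 and Cd3e had 41.3% and 40.9% of their windows under WT DMSO peaks, and Cd8a had 1.85%, off its body. The myeloid genes Itgam, Csf1r and Lyz2 were at 0% in WT DMSO.

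The promoters of 4 regulators are shown as contrasting cases of where peaks lay. The Sdc1 promoter was under a peak, the Prdm1 promoter had a peak close by, the Bcl6 promoter had the most CG dinucleotides of the 9 genes and no peak, and the Jchain promoter shared the fewest with Zbtb20. Each sequence gives the 250 bases before the start site, 5′ to 3′ on the strand of the gene, from RefSeq on GRCm38.p6, with CG in capitals. Sdc1 lies at chr12:8771146-8771395 (plus strand), Prdm1 at chr10:44458749-44458998 (minus), Bcl6 at chr16:23988853-23989102 (minus) and Jchain at chr5:88527898-88528147 (minus).
Sdc1: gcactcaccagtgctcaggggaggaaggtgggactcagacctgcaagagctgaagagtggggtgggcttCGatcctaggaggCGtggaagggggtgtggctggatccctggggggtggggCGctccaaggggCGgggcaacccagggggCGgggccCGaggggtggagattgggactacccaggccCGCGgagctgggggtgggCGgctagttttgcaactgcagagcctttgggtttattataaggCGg
Prdm1: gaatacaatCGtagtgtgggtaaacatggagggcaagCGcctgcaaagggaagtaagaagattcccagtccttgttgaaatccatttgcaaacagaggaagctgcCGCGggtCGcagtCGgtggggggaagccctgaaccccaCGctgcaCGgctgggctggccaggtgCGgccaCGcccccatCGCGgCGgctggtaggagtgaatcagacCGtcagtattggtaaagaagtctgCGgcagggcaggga
Bcl6: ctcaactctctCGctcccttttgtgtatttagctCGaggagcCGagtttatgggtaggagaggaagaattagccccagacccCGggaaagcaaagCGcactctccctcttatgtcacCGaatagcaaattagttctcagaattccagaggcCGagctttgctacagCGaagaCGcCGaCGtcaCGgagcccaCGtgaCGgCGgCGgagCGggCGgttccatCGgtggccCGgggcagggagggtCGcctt
Jchain: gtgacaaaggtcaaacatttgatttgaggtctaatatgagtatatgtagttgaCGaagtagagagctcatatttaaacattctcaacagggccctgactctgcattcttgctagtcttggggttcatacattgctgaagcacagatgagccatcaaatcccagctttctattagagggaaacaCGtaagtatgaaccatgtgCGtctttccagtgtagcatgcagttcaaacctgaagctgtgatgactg
CG, which reads the same on both strands, was counted in these letters. It occurred 10 times at Sdc1, 15 times at Prdm1, 21 times at Bcl6 and 3 times at Jchain. Of all 21045 promoter entries of coding genes, 93.6% held at least 1 CG, and 50.6%, 37.0%, 21.8% and 77.8% held at least as many as these 4 in the same order. Xbp1 had 8, Irf4 11, Bach2 7, Tnfrsf17 5, Zbtb20 3, and a second Bcl6 entry 13.

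Sdc1 was the 1 regulator with a peak on its promoter entry, 250 bases before to 50 after the start. It had 1 in WT DMSO and in mutant DMSO and none in either GSK343 list. Prdm1 has 1 entry, at a start 69.8 kb inside the upstream end of its annotated body. That end was not measured as a promoter. Among all promoter entries of WT cells, 20.3% carried a peak under DMSO and 13.6% under GSK343, and in mutant cells 22.2% and 12.6%. By the number of CG, a WT DMSO peak was carried by 4.27% of entries with 0, 14.0% with 1 to 5, 28.3% with 6 to 10, 25.6% with 11 to 15, 21.1% with 16 to 20 and 24.5% with 21 or more. The share was thus highest with 6 to 10 CG in WT DMSO, and also in mutant DMSO (30.9%). Under GSK343 it was highest with 21 or more, at 20.9% in WT and 18.9% in mutant cells. In each of these ranges and each list most promoters had no peak, as at Bcl6.

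Over the whole windows, 4 of 9 regulators had a peak in WT DMSO (Prdm1, Bach2, Sdc1 and Zbtb20) and 5 in mutant DMSO, where Bcl6 joined them. Under GSK343 the count was 2 in WT (Prdm1 and Sdc1) and 2 in mutant cells (Prdm1 and Zbtb20). The same measure over all coding genes gave 59.6% under DMSO and 37.3% under GSK343 in WT cells, and 64.8% and 34.1% in mutant cells. The regulators' shares, 44.4%, 22.2%, 55.6% and 22.2% in that order, were below these in each list. A set of 9 genes is small, so these gaps rest on few genes. On the gene body itself, 3, 2, 3 and 2 of the 9 regulators had a peak, against 31.8%, 21.4%, 34.6% and 20.3% of coding genes. These body counts were close to the background in each list. The median covered share of the 9 windows was 0% in WT DMSO against 1.45% over all coding genes, and 0.399% against 3.25% in mutant DMSO. Both medians were 0% in each GSK343 list. Window length differs between genes, with a median of 62.3 kb for the regulators and 57.3 kb for all coding genes. With peaks of a fold over background of at least 3, the authors' value for each peak, the count of regulators was 1 in each list, Prdm1. That fold was reached by 12.8%, 45.3%, 10.5% and 41.1% of the peaks of the lists in the same order. The share of all coding genes at this threshold was not computed, so the count of 1 has no background beside it.

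**Figure D1:**
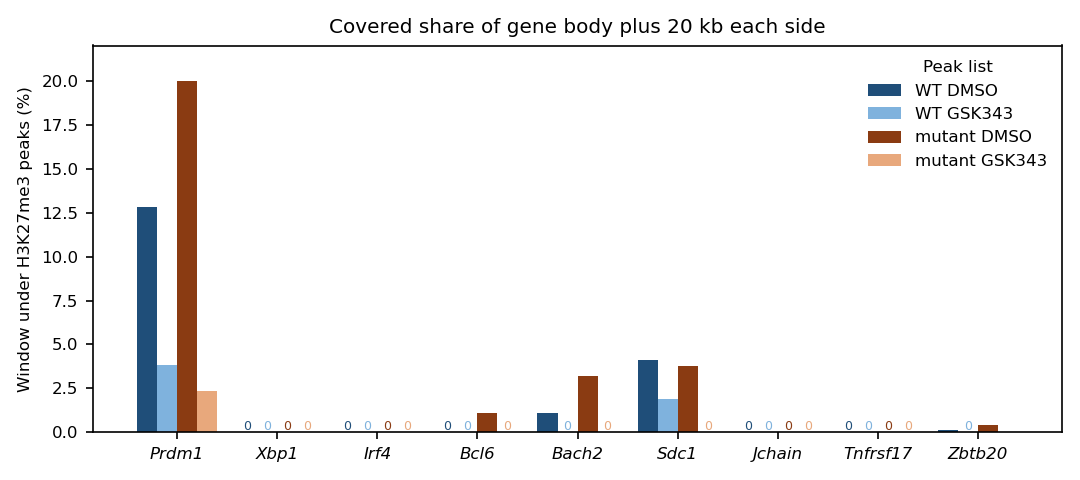
Share of each regulator's window (gene body plus 20 kb on each side, % of bases) under H3K27me3 peaks, with 1 bar for each of the 4 peak lists and 0 printed where no peak was called. Prdm1 is highest in all 4 lists (12.8, 3.86, 20 and 2.36%), and Xbp1, Irf4, Jchain and Tnfrsf17 are at 0 throughout.

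Prdm1 encodes Blimp-1, the repressor that shuts down the B cell programme in plasma cells, and it carried the most H3K27me3 peaks of the 9 genes. Its gene body spans chromosome 10, 44437174 to 44528558 (GRCm38), on the minus strand. The RefSeq start used here lies at 44458748, and the annotated body reaches 69.8 kb upstream of that start. In WT cells the window held 9 peaks under DMSO and 4 under GSK343, which covered 12.8% and 3.86% of it. In mutant cells there were 13 and 4, covering 20% and 2.36%. Between 16.7% and 21% of all coding genes had a larger covered share in the same list.

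Covered bases in the Prdm1 window were 69.8% fewer under GSK343 than under DMSO in WT cells (5068 against 16786 bp) and 88.2% fewer in mutant cells (3099 against 26295 bp). The whole lists covered 75% and 87.4% fewer bases. Over coding-gene windows with a DMSO peak, the median ratio of GSK343 to DMSO bases was 0.148 in WT and 0.023 in mutant cells. Both were below the ratios at Prdm1, 0.302 and 0.118, but these medians include windows left with no peak (37.7% in WT and 47.6% in mutant cells). The ratios over the whole lists were 0.25 and 0.126. Prdm1 was above that in WT cells and slightly below it in mutant cells. When each list was reduced to its 10847 top peaks by p-value, the length of the shortest list, the ratio of GSK343 to DMSO bases at Prdm1 was 0.563 for WT and 0.229 for mutant cells, against 0.302 and 0.118 with all peaks. Under DMSO the mutant list covered 1.57 times as many bases of the Prdm1 window as the WT list, and 1.60 times as many over the genome. With peaks of a q-value of at most 0.01 the ratio at Prdm1 was 2.49. Under GSK343 the mutant to WT ratio at Prdm1 was 0.611, beside 0.805 over the genome and a median of 0.752 over coding-gene windows with a WT GSK343 peak. At Prdm1 it was 1.19 with peaks of a q-value of at most 0.01, so this direction turned with the threshold.

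Peaks in the Prdm1 window fell on 15 separate stretches when the 4 lists were joined. A peak of every list lay on 3 of them, a peak of both DMSO lists and no other on 3, a mutant DMSO peak alone on 7 and a WT DMSO peak alone on 2. No stretch held GSK343 peaks alone. The peak-bearing stretches nearest to and farthest upstream of the start held the highest folds in both DMSO lists.

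The first of the 3 stretches began inside the gene, just downstream of the start. In WT cells its peak ran from 0.937 to 2.02 kb downstream under DMSO (fold 2.99) and from 1.34 to 2.18 kb under GSK343 (fold 2.86). In mutant cells it ran from 0.891 to 3.19 kb (fold 3.88) and from 1.23 to 2.01 kb (fold 3.05). The 4 peaks shared 670 bp. In none of the lists did it reach the start or the promoter printed above.

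The second stretch lay 19.3 to 23.3 kb upstream of the start, within the annotated body. Its peak was 3545 bp wide under DMSO and 1323 bp under GSK343 in WT cells, and 4018 and 254 bp in mutant cells. The 2 GSK343 peaks did not overlap each other, so 0 bp were common to all 4 lists.

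The third stretch, 63.4 to 70.7 kb upstream, covered the upstream (5′) end of the annotated body, at 44528558. It was the widest in both DMSO lists, with 6642 bp and a fold of 3.19 in WT and 7216 bp and a fold of 3.99 in mutant cells. In the WT DMSO list 10.2% of peaks had a higher fold and 6.59% were wider, and in the mutant DMSO list 3.49% and 8.53%. Each GSK343 list held 2 narrower peaks there, of 720 and 2192 bp in WT and of 500 and 1561 bp in mutant cells. All 1561 bp of the latter lay under a peak in the 4 lists. They took in position 44528558, so the annotated 5′ end of Prdm1 was under a peak in each list.

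Outside these 3 stretches, the DMSO lists held peaks of lower fold, from 2.27 to 2.43 in WT and from 2.2 to 2.5 in mutant cells. None of them had a GSK343 counterpart. Of the 9 WT DMSO peaks, 7 were overlapped by a mutant DMSO peak and 3 by a WT GSK343 peak. Of the 13 mutant DMSO peaks, 6 were overlapped by a WT DMSO peak and 3 by a mutant GSK343 peak.

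**Figure D2:**
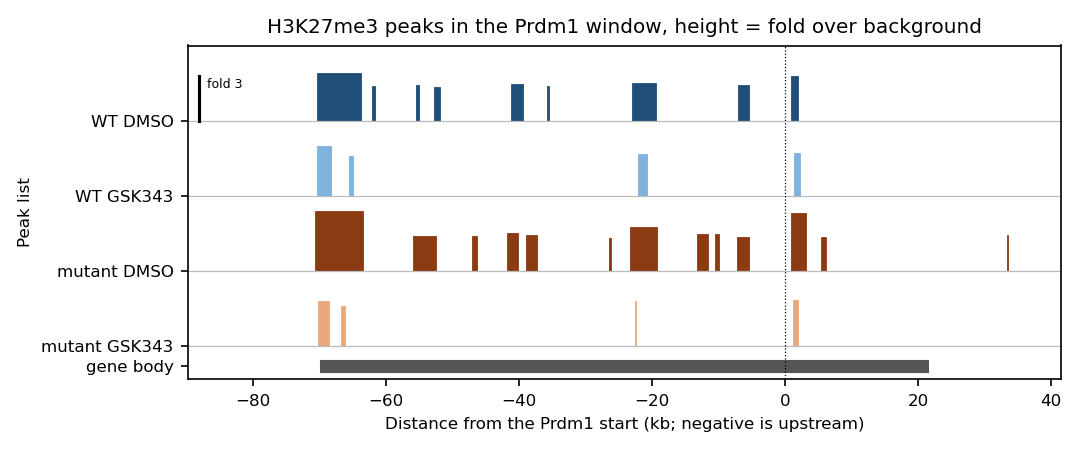
Peaks in the Prdm1 window, 1 row for each list, by distance from the start in kb (negative is upstream), with the height of each box giving its fold over background and the black bar a fold of 3. Under GSK343 peaks are seen just downstream of the start, near 20 kb upstream and at the upstream (5′) end of the gene body (grey bar). The remaining boxes are in the DMSO rows.

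Sdc1 encodes syndecan-1 (CD138), a surface proteoglycan used to identify plasma cells, and had at most 1 peak in a list, at or just inside its start. The gene lies on chromosome 12, 8771396 to 8793716, on the plus strand. The WT DMSO peak was 2556 bp wide with a fold of 2.86, from 412 bp upstream to 2143 bp downstream of the start, and took in the whole promoter printed above. The mutant DMSO peak was 2348 bp wide with a fold of 2.92, and began 41 bp upstream of the start. In WT GSK343 the peak was 1195 bp wide with a fold of 2.82 and began 614 bp inside the gene, clear of the promoter. In mutant GSK343 no peak was called, and the nearest one lay 176 kb away, over Matn3. The covered share of the Sdc1 window was thus 4.10% under DMSO and 1.92% under GSK343 in WT cells, and 3.77% and 0% in mutant cells. Sdc1 was the 1 regulator with less of its window covered in mutant than in WT cells under DMSO. This direction turned with the stretch measured, since the share of the gene body alone was 9.61% in WT and 10.3% in mutant cells, and with 50 kb on each side it was 2.09% and 2.64%.

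Irf4, the transcription factor that starts plasma cell differentiation when abundant, had no peak in its window in the 4 lists. Its gene lies on chromosome 13, 30749233 to 30766981. The nearest peak to its start was 190.4 kb away under DMSO and 192 kb under GSK343 in WT cells, and 192 and 330.2 kb in mutant cells. In all, 13.6% of coding-gene starts were farther from a peak than that in WT DMSO, and 11.3% in mutant DMSO. The interval between peaks around the Irf4 start measured 419 kb in the WT and 427 kb in the mutant list under DMSO.

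Xbp1, the transcription factor of the secretory apparatus, had none either (chromosome 11, 5520641 to 5525993). Its start was 58.5 kb from a peak under DMSO and 76.5 kb under GSK343 in WT cells, and 53.1 and 76.7 kb in mutant cells. The median over all coding starts was 18.4 and 65.9 kb in WT cells and 12.5 and 79.4 kb in mutant cells. Xbp1 was thus farther than the median under DMSO in both genotypes, and close to it under GSK343.

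Jchain, whose product joins secreted IgM and IgA, and Tnfrsf17, the gene of the plasma cell survival receptor BCMA, had no peak in their windows. Jchain lies on chromosome 5, 88519809 to 88527897, and under DMSO its start was 49.7 kb (WT) and 47.2 kb (mutant) from a peak. Under GSK343 these distances were 155 and 156 kb. Flanks of 50 kb instead of 20 kb put 1.0% of the Jchain window under peaks in WT DMSO and 2.84% in mutant DMSO. Tnfrsf17 lies on chromosome 16, 11313232 to 11320074, with a start 55.1 kb (WT) and 53.9 kb (mutant) from a peak under DMSO. Under GSK343 its distances were 600.3 and 669 kb, and 11% and 9.64% of coding starts were farther. The interval between peaks around Tnfrsf17 was 654 kb in WT DMSO and 1535 kb in WT GSK343.

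Zbtb20, a zinc finger factor of the BTB family with a part in plasma cell survival, has the longest body of the 9 (chromosome 16, 42875689 to 43634392), and its peaks were few and weak. Its body held 2 peaks in WT DMSO (352 and 662 bp, folds 2.2 and 2.38) and 2 in mutant DMSO (601 and 2587 bp, folds 2.21 and 2.36). One position, about 255 kb downstream of the start, was shared by both DMSO lists. WT GSK343 had none, and mutant GSK343 had 1 of 242 bp (fold 2.88) that no peak of the other lists overlapped. The covered share was 0.127% under DMSO and 0% under GSK343 in WT cells, and 0.399% and 0.0303% in mutant cells.

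Bcl6, the repressor that defines the germinal centre B cell, had no peak on its body (chromosome 16, 23965050 to 23988866) in the 4 lists. The mutant DMSO list had 1 peak of 893 bp and a fold of 2.28 that crossed the outer edge of the window, 43.1 kb downstream of the start. It put 1.10% of the window under a peak. The Bcl6 start was 55.1 kb (WT) and 27.1 kb (mutant) from a peak under DMSO, and 90.5 and 89 kb under GSK343. Flanks of 50 kb instead of 20 kb put 3.3% of the Bcl6 window under peaks in WT DMSO and 6.21% in mutant DMSO.

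Bach2, the repressor that opposes Prdm1 in B cells, was also free of peaks over its 348 kb body (chromosome 4, 32238413 to 32586109). The peaks in its window lay past its 3′ end, over or near Gja10, a connexin gene and the only coding neighbour of the 9 windows with a peak on its own body. There WT DMSO had 4 peaks of 267 to 1843 bp, with folds from 2.33 to 2.71, of which 1 lay on Gja10. Mutant DMSO had 1 peak of 16032 bp (fold 2.49), which ran beyond the window and overlapped 6 WT DMSO peaks. It covered 100% of the Gja10 body, against 25.5% in WT DMSO. Neither GSK343 list had a peak there. The covered share of the Bach2 window was 1.10% in WT DMSO and 3.19% in mutant DMSO, and none of it was on Bach2.

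**Figure D3:**
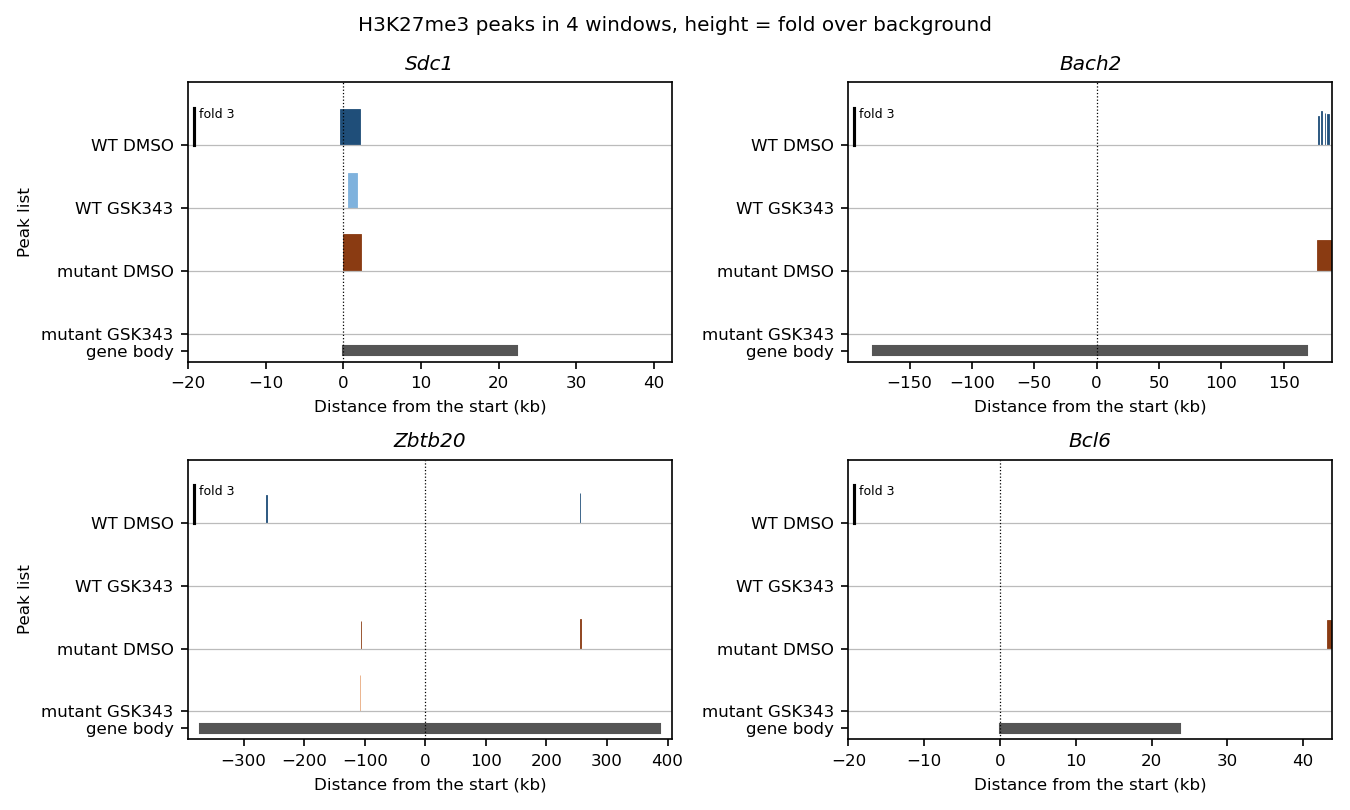
Peaks in the windows of Sdc1, Bach2, Zbtb20 and Bcl6 by distance from the start in kb (positive is downstream), 1 row for each list, with box height giving the fold and the black bar a fold of 3; boxes at the right edge for Bach2 and Bcl6 run past the window, and the thinnest lines are drawn at a minimum line width. Of these 4 genes, Sdc1 alone has peaks over its start, in both DMSO lists, and the Bach2 and Bcl6 peaks lie beyond the gene body (grey bar).

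The Sdc1 start was under a peak in both DMSO lists, and the Prdm1 start was between 0.891 and 1.34 kb from one in all 4 lists. In the DMSO lists the other 7 starts were between 27.1 and 255 kb away. These distances are from 1 RefSeq start for each gene, and for Bcl6 the first of 2 entries was used. The start used lies 372 kb inside the upstream end of the annotated Zbtb20 body, and 179 kb inside that of Bach2. Under a peak lay 19.5% of coding-gene starts in WT DMSO and 21.4% in mutant DMSO. The neighbours Ccdc117 (by Xbp1), Enam (by Jchain), Pum2 (by Sdc1), Snx29 (by Tnfrsf17) and Tigit (by Zbtb20) had no peak on their bodies in the 4 lists.

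**Figure D4:**
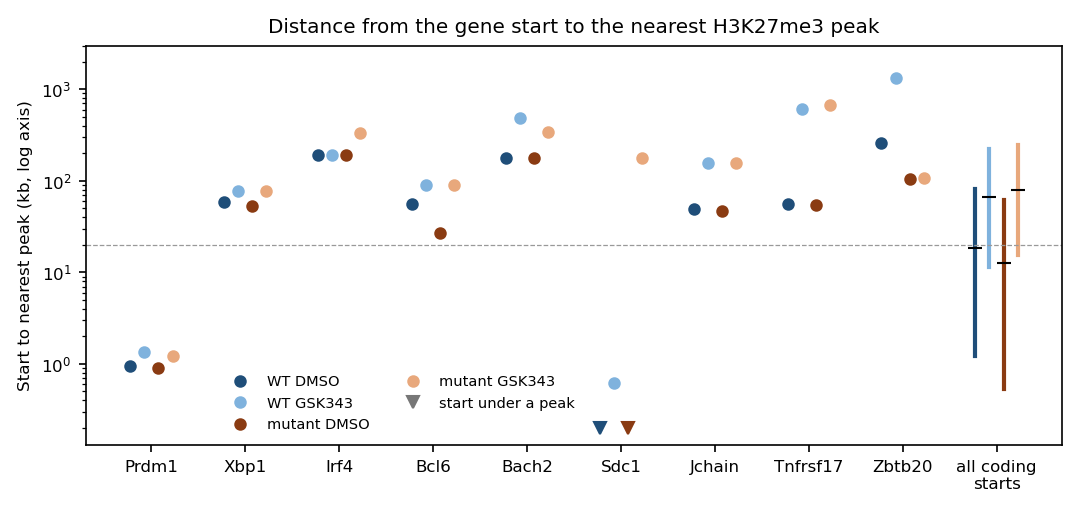
Distance from each regulator's start to the nearest peak in kb on a log axis, 1 point for each list, with triangles at the bottom for a start under a peak and a dashed line at 20 kb. At the right, vertical bars span the middle 50% of all coding-gene starts with the median as a tick; Prdm1 and Sdc1 lie below the line in the DMSO lists and the other 7 above it.

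Within each genotype, coverage under GSK343 was lower than under DMSO in 4 of 9 windows in WT cells and 5 of 9 in mutant cells, which are all of those with a DMSO peak. Over all coding genes 59.4% (WT) and 64.7% (mutant) had less covered. A higher share under GSK343 was seen in 0 of 9 in both, against 0.439% and 0.254% of coding genes. No peak was left under GSK343 in 2 of the 4 WT windows (Bach2 and Zbtb20), against 37.7% of all coding-gene windows with a WT DMSO peak. In mutant cells it was 3 of 5 (Bach2, Sdc1 and Bcl6), against 47.6%.

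Between genotypes under DMSO, 4 windows were covered more in mutant cells (Prdm1, Bach2, Zbtb20 and Bcl6) and 1 less (Sdc1, whose direction turned with the gene body alone and with 50 kb flanks). Over all coding genes 59.5% were covered more, beside a mutant list with more peaks. Under GSK343, 1 window was covered more in mutant cells (Zbtb20) and 2 less (Prdm1 and Sdc1), and 12.6% of coding genes were covered more. The share of coding genes covered less was not computed for either treatment. With a q-value of at most 0.01, the Prdm1 direction under GSK343 turned, and no GSK343 peak remained at Sdc1 or Zbtb20. Under DMSO that threshold left no peak at Bcl6 or Zbtb20 in either genotype. Of the 9 windows joined, WT peaks covered 1.5% under DMSO and 0.381% under GSK343, and mutant peaks 2.74% and 0.203%. All coding-gene windows, which overlap in part, gave 6.08%, 1.78%, 8.95% and 1.44%. Prdm1 supplied most of the covered bases of the 9 windows, 16786 of 24605 bp in WT DMSO and 26295 of 44915 bp in mutant DMSO.

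By median fold, the peaks in the 9 windows were of middling strength for their lists. Prdm1 held most of them, with 9 of 16, 4 of 5, 13 of 18 and 4 of 5 in the order given below. In WT cells their median fold was 2.41 under DMSO against 2.48 for the whole list, and 2.82 against 2.96 under GSK343. In mutant cells it was 2.41 against 2.33, and 2.99 against 2.91. A q-value of at most 0.01 was reached by 4 of 16, 1 of 5, 10 of 18 and 3 of 5 peaks in that order, against 37.1%, 44.8%, 40.2% and 47.5% of the peaks of the lists. The share was thus below that of the list in WT cells and above it in mutant cells. Most of these peaks were neighbours in the Prdm1 window and are not separate observations, and each GSK343 share rests on 5 peaks. No difference between genotypes over the 9 genes can be drawn from these shares.

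Further genes of both programmes were counted in a plasma cell list of 20 genes and a germinal centre list of 24 genes, of which 23 were matched by name. In the plasma cell list 11 of 20 had a peak in their window under DMSO and 6 under GSK343 in WT cells, and 12 and 6 in mutant cells. In the germinal centre list the counts were 12, 6, 13 and 6 of 23 in the same order. The shares, 55.0%, 30.0%, 60.0% and 30.0% in the plasma cell list and 52.2%, 26.1%, 56.5% and 26.1% in the germinal centre list, stand beside 59.6%, 37.3%, 64.8% and 34.1% of all coding genes. On the gene body, the counts were 5, 4, 5 and 4 of 20 in the plasma cell list and 8, 4, 10 and 3 of 23 in the germinal centre list, against 31.8%, 21.4%, 34.6% and 20.3% of coding genes. Median covered shares in WT DMSO were 1.61% and 0.310%, against 1.45% over all coding genes. Coverage was lower under GSK343 for 11 of 20 and 12 of 23 genes in WT cells (55.0% and 52.2%) and for 12 and 13 in mutant cells (60.0% and 56.5%). Over all coding genes 59.4% (WT) and 64.7% (mutant) were lower, so neither list exceeded the background. No gene of either list was covered more under GSK343.

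The plasma cell genes with the largest covered share in WT DMSO were Fkbp11, Mzb1 and Cxcr4. Fkbp11, an endoplasmic reticulum chaperone gene, had 48.8% of its window covered under DMSO and 14.8% under GSK343 in WT cells, 56.6% and 4.97% in mutant cells, and a peak on its body in each list. Ccdc65 in the same window also carried a WT DMSO peak. Mzb1, a chaperone gene for immunoglobulin, had 12.3%, 7.37%, 10.8% and 9.01% in the same order, all of it off its body, in a window where Prob1 and Spata24 carried WT DMSO peaks. Cxcr4, the chemokine receptor that guides plasma cells to bone marrow, had 11.8% and 30.2% under DMSO in WT and mutant cells, off its body, and 0% under GSK343.

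In the germinal centre list the leading genes were Plxnb2, Nuggc and Batf. Plxnb2, a plexin receptor gene, had 16%, 9.27%, 15.4% and 3.45% of its window covered in the same order, in a window where Mapk12 and Mapk11 also carried WT DMSO peaks. Nuggc, a germinal centre GTPase gene, had 15.9%, 1.08%, 30.5% and 0.410%, with 5 WT DMSO peaks on its body, and Scara5 in its window carried a WT DMSO peak too. Batf, an AP-1 family factor gene, had 15.1%, 3.57%, 24.5% and 1.40%, with no peak on its body in the 4 lists.

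**Figure D5:**
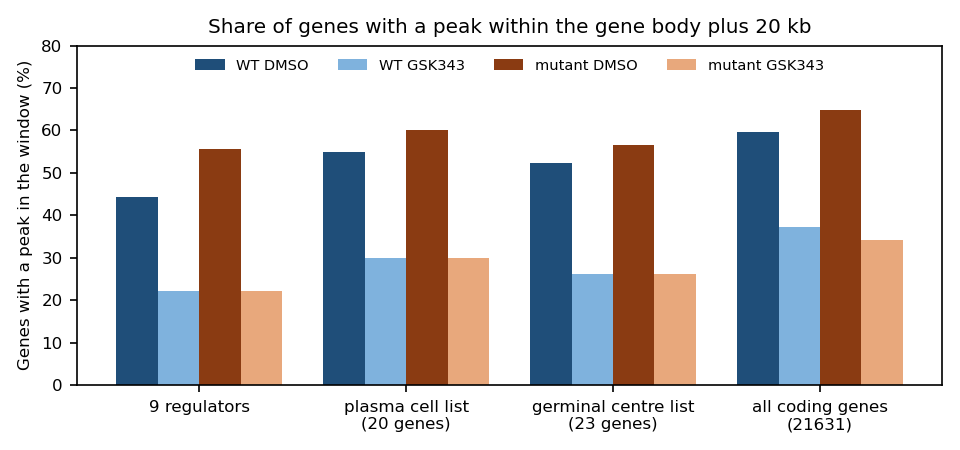
Share of genes (%) with at least 1 peak within the gene body plus 20 kb on each side, for the 9 regulators, the 20 matched plasma cell genes, the 23 matched germinal centre genes and all 21631 coding genes, with 1 bar for each peak list. In each list the bar of the 9 regulators is the lowest of the 4 sets, from 22.2 to 55.6%, and the bar of all coding genes the highest, from 34.1 to 64.8%. The bars of the 9 regulators rest on few genes.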

How the data were processed

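Peak positions were used as deposited by the authors in 4 broadPeak lists, 1 for each genotype and treatment. The submitters' processing notes name mm10 (GRCm38), Bowtie2 2.4.2, SAMtools 1.12, MACS2 2.2.7.1, bedtools 2.29.2 and deepTools 3.5.1, with no settings. Each list was tied to its group by the prefix of its peak names. A folder in those names refers to pooled duplicates, but the mutant prefixes end in 1, so replicate 1 alone cannot be told apart from pooling there. Blacklisted peaks had been removed, per the file names. The fold, a linear ratio of ChIP over background, and the −log10 of p-value and q-value of each peak are the authors' deposited values, used to describe and filter peaks within a list; the deposited score was not used.

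Genes came from a RefSeq table of GRCm38.p6 and start sites from RefSeq promoter entries, which matched 9 of 9 members. Peaks sharing at least 1 bp with a window were counted and covered bases summed, with positions from 1. No test was possible with 1 list per group. The members and both further gene lists were chosen with earlier results of these data known. By rule, all members, coding neighbours with a peak, and the 3 genes of each list with the largest WT DMSO share were named, with a set of cell type markers. Neighbours without a peak, other genes with a peak in those 3 genes' windows, and Matn3 were named in addition, after their values were seen. Alternatives were the gene body alone, 50 kb flanks, a q-value of at most 0.01, the same number of top peaks, a fold of at least 3, peaks of at least 1 kb, and at least 50% of the peak in the window. Python 3.11.15, numpy 2.4.6, pandas 2.3.3 and matplotlib 3.10.9 were used. The counting was checked on 1000 simulated windows and gave the same values as bedtools 2.31.1 in 4 of 4 lists. A further marker gene is not reported here.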

Additional observations from a re-analysis of the deposited data

How the results depend on the processing

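Of 70 values for the counts and joined shares of the 9 windows under 7 alternatives, 46 stayed within 1.5 times the original and 24 moved further. The cause was not tested. A filter that removes peaks can by itself only lower a count of regulators with a peak. With a fold of at least 3, 1 regulator had a peak in each list, the joined shares were 0.405% under DMSO and 0.133% under GSK343 in WT cells and 0.579% and 0.0477% in mutant cells, and 1 window was covered less under GSK343 in each genotype. With a q-value of at most 0.01, the WT GSK343 count was 1 regulator, the mutant counts were 3 under DMSO and 1 under GSK343, the joined WT shares were 0.684% under DMSO and 0.133% under GSK343, and 3 mutant windows were covered less under GSK343. That threshold reversed the mutant to WT ratio at Prdm1 under GSK343, from 0.611 to 1.19, and moved the DMSO ratio there from 1.57 to 2.49. With the same number of top peaks, 2 regulators had a peak in mutant DMSO and 2 mutant windows were covered less under GSK343, and the joined DMSO shares were 0.684% (WT) and 0.967% (mutant). With the gene body only, both of these mutant counts were 3. With peaks of at least 1 kb, 1 regulator had a peak in mutant GSK343, with a joined share of 0.0951%. With 50 kb flanks, or 50% of the peak in the window required, none of these values moved further than 1.5 times. The wider flanks still gave 6 regulators with a peak in each DMSO list, against 4 in WT and 5 in mutant cells as reported. Bcl6 and Jchain were added in WT cells and Jchain in mutant cells. Apart from peaks on the gene body, the share of all coding genes was not computed under these alternatives. These counts of regulators thus have no background beside them, and whether they stay below it is unknown. The lower mutant than WT share of Sdc1 under DMSO (3.77% against 4.10%) turned with the gene body only (10.3% against 9.61%) and with 50 kb flanks (2.64% against 2.09%). Among 280 values for single members, 230 stayed, 49 moved and 1 reversed.

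No paired analysis was possible because there is 1 peak list for each group and none for each replicate, and for that reason no replicate was left out. Depth limits each absence of a peak, since it is unknown from the lists.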
